A study of Mus musculus with 12 samples.

Results

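Cytochrome P450s are haem-containing monooxygenases that oxidise drugs, steroids, bile acids, fatty acids and vitamins, and carboxylesterases hydrolyse ester bonds in drugs and in stored lipids. In the liver both families are known mainly from hepatocytes, where P450 genes such as Cyp2e1 and Cyp1a2 are concentrated around the central vein. Endothelium is known to hold a few members of its own, among them Cyp1b1, which is induced through the aryl hydrocarbon receptor (AHR), and epoxygenases that turn arachidonic acid into vasoactive lipids. The set described here took every gene on the arrays whose symbol had the form of a mouse P450 (Cyp, number, letter, number) or of a carboxylesterase of families Ces1 to Ces5, without Cyp26a1, Cyp26b1, Cyp27a1 and Cyp7b1. It held 106 of the 25428 probe sets, 1 for each gene, of which 88 were P450s and 18 carboxylesterases.

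The genes were measured in liver sinusoidal endothelial cells of mice, in 6 NICD-OE-HEC samples against 6 Control samples. NICD-OE-HEC mice carried 1 Clec4g-Cre transgene and the Rosa26-N1ICD-IRES-GFP allele, so that cells in which the Clec4g promoter drives Cre overexpress the Notch1 intracellular domain and GFP. For the Control mice the full genotype, and for both groups the age, is not stated in the labels used here. Each sample pooled the livers of 3 mice, and the cells were taken by a density gradient and by magnetic beads against CD146, so hepatocytes and other liver cells that pass both steps can remain. Levels are log2 RMA values, 1 array for each sample, and the arrays' number limits the precision.

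The 10 endothelial marker genes all lay above the median of all probe sets with means from 8.92 to 11.93, and their mean was 0.27 lower in NICD-OE-HEC (10.62 ± 0.09) than in Control (10.89 ± 0.08; SD, n = 6 each; exact permutation adjusted p = 0.00866). Single endothelial markers went both ways, with 2 called higher (Mcam 0.92 and Pecam1 0.33) and 5 lower, among them Stab2 (-1.32) and Clec4g (-0.81). The other 3, Cdh5 (0.006), Tie1 (0.003) and Eng (-0.29), were not called. RNA of other liver cells was measured on the same arrays. The mean of 24 hepatocyte markers ran from 6.49 to 7.87 on NICD-OE-HEC arrays and from 5.65 to 7.00 on Control arrays, a difference of 0.86 (two-sided exact permutation p = 0.0238 over 924 assignments, adjusted p = 0.0286 over 6 marker lists). Array 1 of each group had that group's highest hepatocyte mean. Of the 24 markers 11 were higher, 0 were lower and all lay above the median, Alb (albumin) averaging 10.71 ± 0.45 in NICD-OE-HEC and 9.59 ± 0.36 in Control (SD, n = 6 each). Neutrophil, cholangiocyte and stellate cell marker means were also higher in NICD-OE-HEC, by 1.95, 0.82 and 0.60 (exact permutation adjusted p = 0.00649, 0.00649 and 0.0260). In these lists 8 of 10, 5 of 5 and 3 of 10 measured genes were called higher. The cholangiocyte list held 8 genes, of which 5 were measured. Among all probe sets 4.89% were called higher and 5.59% lower, and among those above the median 8.61% and 10.4%. The 3 stellate genes were the collagens Col1a1 (2.49), Col3a1 (2.11) and Col1a2 (1.71), while Lrat, the retinol esterifying enzyme of stellate cells, was called lower (-0.75). The neutrophil mean ran from 4.88 to 7.03 in NICD-OE-HEC and from 3.34 to 4.80 in Control, the cholangiocyte mean from 4.71 to 5.16 and from 3.98 to 4.41, and the stellate mean from 5.57 to 6.08 and from 4.74 to 5.94. The Kupffer cell mean differed by 0.54 (exact permutation adjusted p = 0.0779). In bulk samples fewer cells of a type and less RNA in each of its cells cannot be told apart.

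A small part of the set differed between the groups, in both directions. A gene was called at a limma p under 0.05 after Benjamini-Hochberg adjustment over all probe sets. By that rule 5 of the 106 genes were higher and 8 lower in NICD-OE-HEC, together 12.3%, beside 10.5% of all probe sets (4.89% higher and 5.59% lower). The genes that rose were Cyp1b1, Cyp1a1, Ces1d, Cyp39a1 and Cyp4f14, and those that fell were Ces2e, Ces2g, Cyp1a2, Cyp2j6, Cyp2r1, Cyp4b1, Cyp2j9 and Cyp2d22. The median difference of the 106 genes was 0.00 and that of all probe sets -0.01. The groups did not overlap for 8 genes, 7.55% of the set beside 6.68% of all probe sets.

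**Figure D1:**
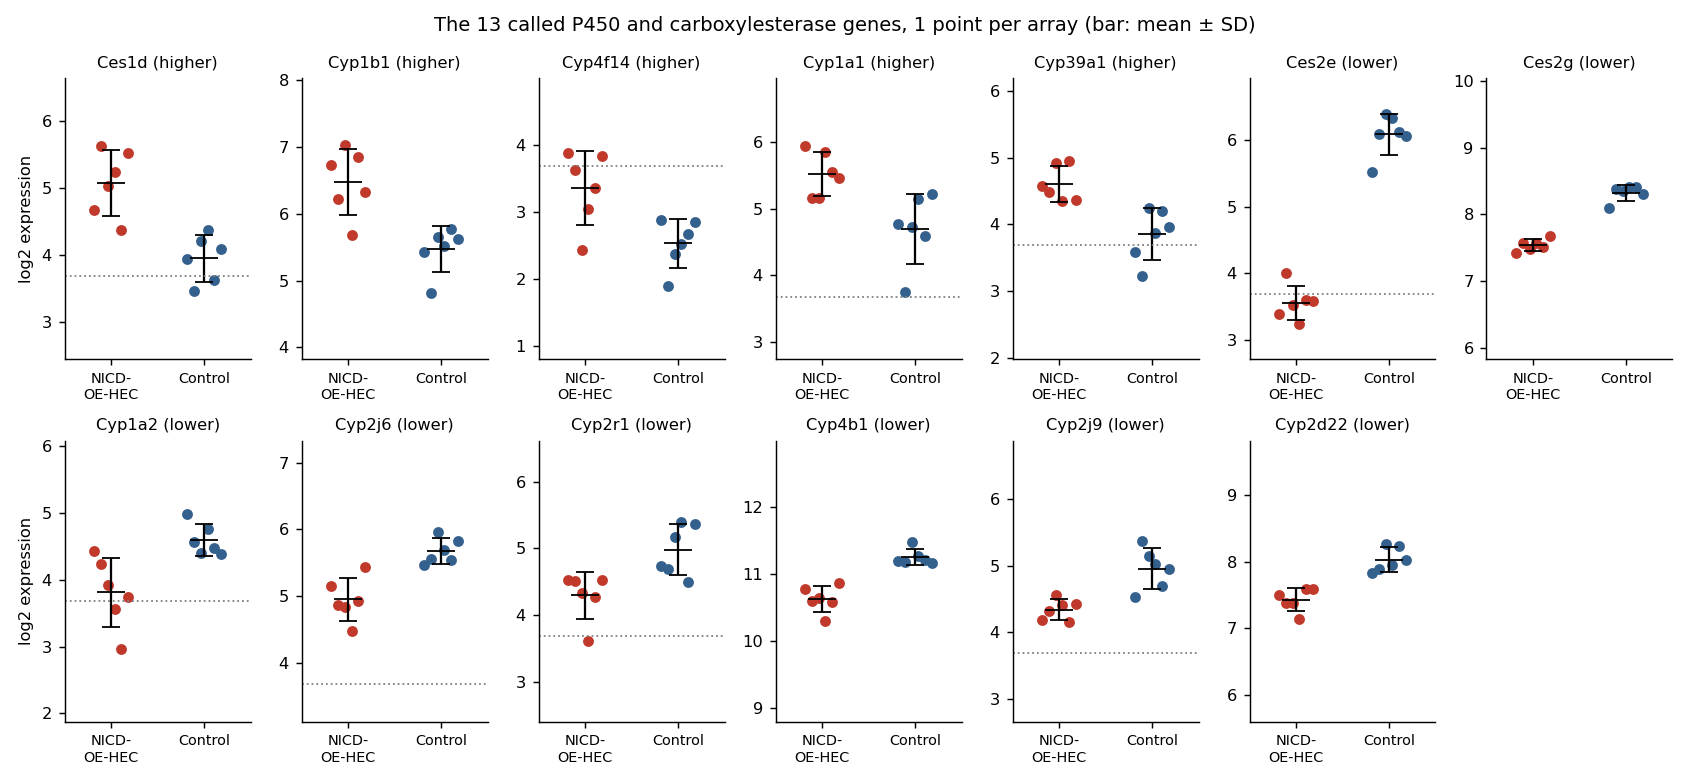
Log2 expression (vertical axes, each spanning the same range) of the 13 called genes on the 6 NICD-OE-HEC arrays (red) and the 6 Control arrays (blue), with the mean and SD of each group in black and the median of all probe sets dotted. Ces2e shows the widest gap of the 13, with all NICD-OE-HEC arrays between 3.25 and 4.00 and all Control arrays between 5.52 and 6.38.

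Most of the set lay at levels not separated from background, taken here as the median of all probe sets because there are no detection calls. Of the 106 genes 75, or 70.8%, had a mean over the 12 arrays at or below the median of all probe sets, 3.68, and among these 1 was called, beside 1.93% of all probe sets at such levels. Another 22 lay between that median and the 75th percentile of 5.80, and 9 lay above it. The last genes inside the upper 2 classes were Cyp4v3 (mean 5.96) and Cyp2a12 (3.69), and the first genes outside were Cyp2j6 (5.32) and Cyp2c70 (3.68). Above the median 12 of 31 genes were called, 38.7%, beside 19.0% of all probe sets above it. Of those 12 genes 4 were higher and 8 lower, beside 8.61% higher and 10.4% lower among all probe sets above the median. The groups did not overlap for 12.4% of those probe sets. A probe set's brightness also depends on its probes, so levels are set against background here and not ranked between genes.

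**Figure D2:**
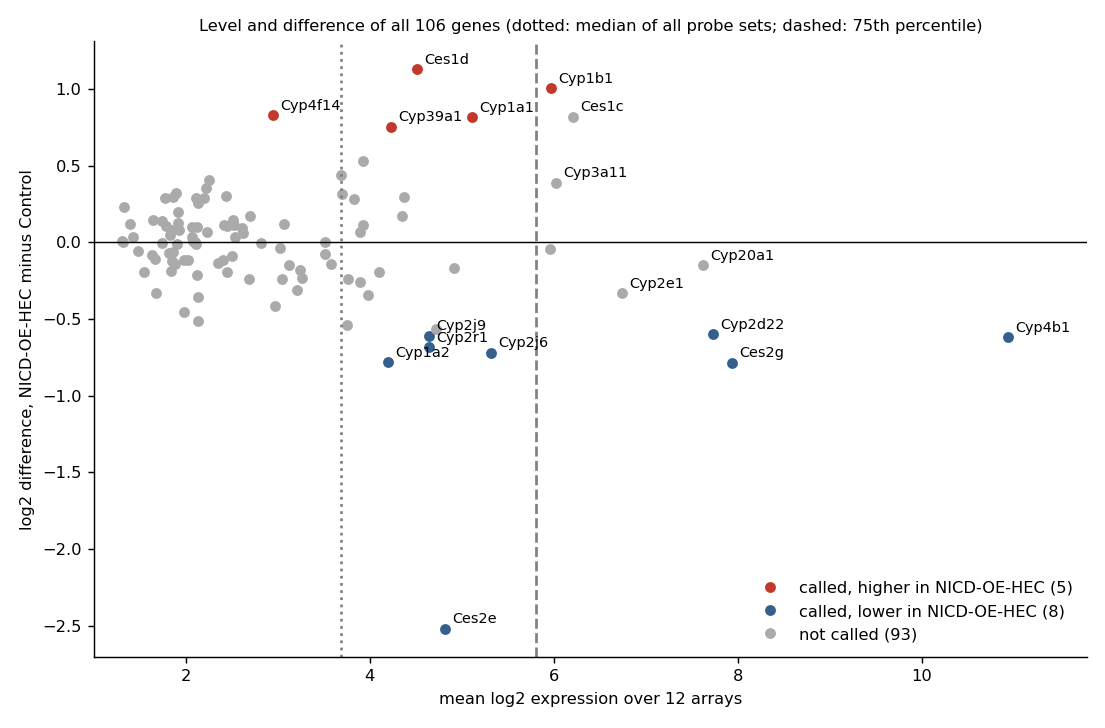
Mean log2 expression over 12 arrays (horizontal) against the log2 difference, NICD-OE-HEC minus Control (vertical), 1 point for each of the 106 genes, with genes called higher in red, called lower in blue and the 93 not called in grey. The 75 genes left of the dotted median include 1 called gene, Cyp4f14.

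The 9 genes above the 75th percentile differed in how far they varied between arrays of 1 group. Cyp2e1, Ces1c and Cyp3a11, genes known from hepatocytes, had SDs within a group from 0.50 to 0.83. Cyp4b1, Ces2g, Cyp2d22 and Cyp20a1 had SDs from 0.09 to 0.20. Cyp1b1 (0.50 in NICD-OE-HEC and 0.34 in Control) and Cyp4v3 (0.33 and 0.25) lay between or overlapped these, so the SD alone gives no split. A second measure was therefore read from a fit with the group and the hepatocyte marker mean of each array: the slope, the change of a gene's log2 level for each log2 unit of that mean. A positive slope at an adjusted p under 0.05 was found for 153 probe sets (0.602%), among them 19 of the 24 hepatocyte markers, which make up the mean, 4 of the 10 Kupffer cell markers (Clec4f, Cd5l, C1qa and Csf1r) and 0 of the 10 endothelial, stellate and neutrophil markers each. A positive slope therefore does not tell hepatocyte from Kupffer cell RNA. In the set 4 genes had one, 3.77%. They were Ces1c (slope 1.20, adjusted p = 0.00211), Cyp2c70 (1.49, adjusted p = 0.00209), Ces3a (1.09, adjusted p = 0.0211) and Cyp2d9 (0.76, adjusted p = 0.0262). Cyp2c70 and Cyp2d9 lay below the background median, which is thus a rough cut. Cyp2e1 had a slope of 1.10 (adjusted p = 0.0518), Cyp2c29 of 1.21 (adjusted p = 0.0596) and Cyp3a11 of 0.93 (adjusted p = 0.180). Without array 1 of both groups the slopes of Ces1c, Cyp2c70, Ces3a and Cyp2d9 were 1.64, 1.36, 1.50 and 1.02 and none of the 4 passed (adjusted p from 0.371 to 0.888). Those fits hold 2 arrays fewer and a narrower range of the mean. Cyp4b1 (-0.01), Ces2g (-0.13), Cyp2d22 (-0.15), Cyp1b1 (-0.16) and Ces2e (-0.23) had slopes that did not pass.

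**Figure D3:**
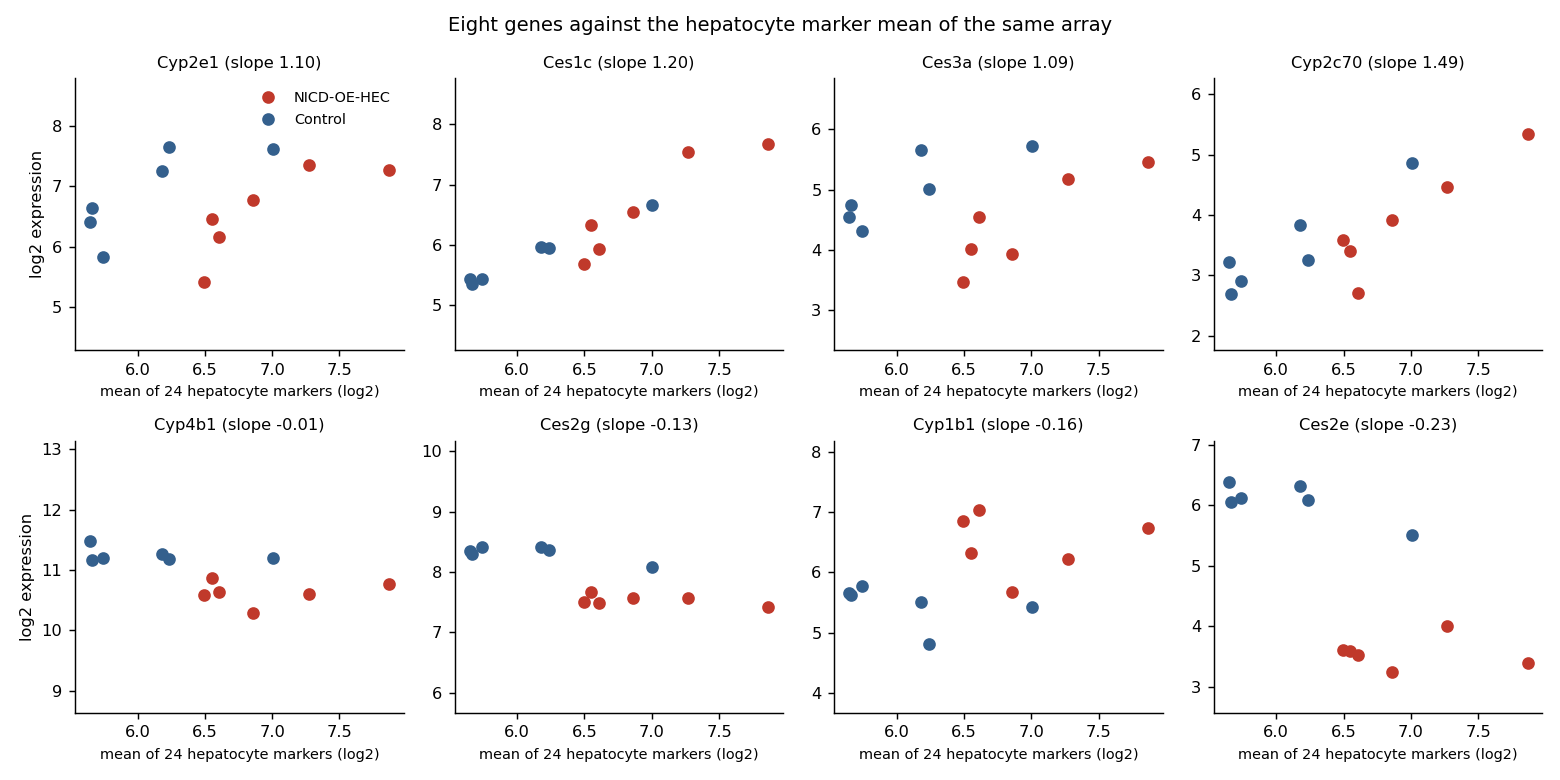
Log2 expression of 8 genes (vertical axes, each spanning the same range) against the mean of 24 hepatocyte markers on the same array (horizontal, log2), with NICD-OE-HEC arrays in red and Control arrays in blue. Cyp2e1, Ces1c, Ces3a and Cyp2c70 climb with the marker mean at slopes from 1.09 to 1.49, whereas Cyp4b1, Ces2g, Cyp1b1 and Ces2e have slopes from -0.23 to -0.01.

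The AHR-inducible CYP1 enzymes, which oxidise polycyclic aromatic compounds and oestrogens, moved in opposite directions. Cyp1b1, the member known from endothelial and stromal cells, had a lowest, median and highest level of 5.68, 6.53 and 7.03 in NICD-OE-HEC, against 4.82, 5.57 and 5.78 in Control. NICD-OE-HEC 4 was the only NICD-OE-HEC array within the Control range. Cyp1b1 rose by 1.01 (SE 0.21, 2.01-fold on the linear scale, limma adjusted p = 0.00562). Cyp1a1 was 5.15, 5.50 and 5.94 (lowest, median, highest) in NICD-OE-HEC, against 3.76, 4.75 and 5.21 in Control, and rose by 0.82 (SE 0.22, adjusted p = 0.0252). Its groups overlapped at their edges, and the call was lost without NICD-OE-HEC 1, NICD-OE-HEC 4 or Control 5 (differences over single arrays left out from 0.63 to 0.92). Cyp1a2, a drug and caffeine oxidising enzyme of hepatocytes around the central vein and the gene next to Cyp1a1, was 2.96, 3.83 and 4.43 in NICD-OE-HEC, against 4.38, 4.51 and 4.99 in Control. The groups overlapped at 1 NICD-OE-HEC array, and Cyp1a2 fell by 0.78 (SE 0.20, adjusted p = 0.0212). That call was lost without Control 4 (differences over single arrays left out from -0.91 to -0.61), and on the NICD-OE-HEC arrays the gene lay near the background median. Stellate cell, cholangiocyte and neutrophil marker means were higher in NICD-OE-HEC too, by the values given above, and their part in these differences was not tested.

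The promoter windows of the CYP1 genes are shown because their products share 1 inducer and the genes did not move together. They are RefSeq sequences on GRCm38.p6, from 250 bases before to 50 bases after the gene's start, 5′ to 3′ on the gene's own strand, and 81 of the 106 genes had such a window. Capitals mark GCGTG, the core of the AHR response element, and GTGGGAA, a sequence bound by the Notch partner RBPJ, each searched on both strands. Cyp1b1 lies at chr17:79715012-79715311 (minus strand), Cyp1a1 at chr9:57697363-57697662 (plus strand), Cyp1a2 at chr9:57683606-57683905 (minus strand) and Cyp2j6, described further on and shown as a gene that fell, at chr4:96553602-96553901 (minus strand).
Cyp1b1: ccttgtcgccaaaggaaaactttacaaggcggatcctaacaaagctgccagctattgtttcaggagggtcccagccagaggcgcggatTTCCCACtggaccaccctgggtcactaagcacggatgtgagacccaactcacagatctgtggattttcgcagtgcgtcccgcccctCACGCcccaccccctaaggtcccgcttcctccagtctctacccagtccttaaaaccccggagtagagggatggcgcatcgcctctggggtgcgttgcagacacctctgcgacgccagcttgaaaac
Cyp1a1: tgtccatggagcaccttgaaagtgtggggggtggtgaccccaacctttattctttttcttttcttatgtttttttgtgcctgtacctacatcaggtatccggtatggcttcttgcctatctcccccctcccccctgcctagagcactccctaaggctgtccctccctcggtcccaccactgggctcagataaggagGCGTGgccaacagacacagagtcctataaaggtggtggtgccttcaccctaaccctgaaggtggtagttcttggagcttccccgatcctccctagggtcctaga
Cyp1a2: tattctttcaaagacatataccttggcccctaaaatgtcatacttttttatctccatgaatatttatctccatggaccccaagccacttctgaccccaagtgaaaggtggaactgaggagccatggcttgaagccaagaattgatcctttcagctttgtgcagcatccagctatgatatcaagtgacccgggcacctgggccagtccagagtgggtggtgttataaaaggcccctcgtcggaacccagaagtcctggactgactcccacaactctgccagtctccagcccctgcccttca
Cyp2j6: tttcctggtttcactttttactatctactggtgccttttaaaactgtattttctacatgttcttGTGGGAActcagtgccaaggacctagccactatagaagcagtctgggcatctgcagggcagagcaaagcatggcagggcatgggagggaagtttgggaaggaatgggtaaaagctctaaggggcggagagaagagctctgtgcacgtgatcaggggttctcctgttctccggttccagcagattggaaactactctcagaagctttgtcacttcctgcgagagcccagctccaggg

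In the Cyp1b1 window both motifs lie on the opposite strand, GTGGGAA starting 162 and GCGTG 76 bases before the start. Cyp1a1 holds GCGTG 54 bases before its start, Cyp1a2 holds neither motif in this window, and Cyp2j6 holds GTGGGAA 186 bases before its start. GCGTG stands in 32.4% of 32851 promoter windows of all genes, in 35.2% of 27025 genes with a window and in 16 of the 81 such genes of the set (19.8%). Of the 10 called genes with a window 5 hold it, of which Cyp1a1, Cyp1b1 and Cyp4f14 rose and Cyp2j9 and Cyp2r1 fell. GTGGGAA stands in 6.38% of all windows, in 7.25% of all genes with a window and in 9 of the 81 (11.1%), and of the 10 called genes with a window 2 hold it, Cyp1b1, which rose, and Cyp2j6, which fell. These matches describe letters in the windows and are no measure of binding. Sequence further than 250 bases before a start was not searched, so a motif missing from a window can still lie beyond it.

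The carboxylesterases gave 1 rise and 2 falls among 18 genes, beside 4.89% higher and 5.59% lower among all probe sets. Both falls were in family Ces2, whose enzymes hydrolyse esters with bulky alcohol groups. Ces2e was 3.25, 3.56 and 4.00 (lowest, median, highest) in NICD-OE-HEC, against 5.52, 6.10 and 6.38 in Control. All NICD-OE-HEC arrays lay below all Control arrays, and their mean of 3.56 ± 0.26 lay below the background median, so the size of the fall is not exact. Ces2e fell by 2.52 (SE 0.15, 5.74-fold, adjusted p = 3.43e-08). Ces2g was 7.42, 7.54 and 7.68 in NICD-OE-HEC, against 8.09, 8.36 and 8.42 in Control, again without overlap, and fell by 0.78 (SE 0.08, adjusted p = 1.23e-05). The other 4 genes of the family had means below the background median and were not called. Hepatocyte markers were higher on the same NICD-OE-HEC arrays. With the hepatocyte marker mean in the fit the differences of Ces2e and Ces2g were -2.32 and -0.68. The part of hepatocyte RNA in these differences was not tested.

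Ces2e and Ces2g lie in 1 row of carboxylesterase genes with Ces2f between them. Their RefSeq windows, at chr8:104926010-104926309 and chr8:104961468-104961767 (GRCm38.p6, both plus strand), are shown because the genes fell together. Capitals mark the longest stretch that the windows share, 13 bases, which starts 34 bases before the start of Ces2e and 24 bases before that of Ces2g. This stretch was picked after the values were seen. It stands in 3 of the 32851 windows (0.00913%), on either strand, and in 2 of the 6 Ces2 genes with a window. The windows of Ces2e and Ces2g hold it because it was taken from them, so these counts do not tie it to the falls.
Ces2e: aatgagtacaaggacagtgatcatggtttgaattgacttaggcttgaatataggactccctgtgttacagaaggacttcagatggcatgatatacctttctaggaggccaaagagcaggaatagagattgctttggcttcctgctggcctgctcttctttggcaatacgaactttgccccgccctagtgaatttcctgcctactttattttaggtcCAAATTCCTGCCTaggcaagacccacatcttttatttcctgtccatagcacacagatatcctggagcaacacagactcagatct
Ces2g: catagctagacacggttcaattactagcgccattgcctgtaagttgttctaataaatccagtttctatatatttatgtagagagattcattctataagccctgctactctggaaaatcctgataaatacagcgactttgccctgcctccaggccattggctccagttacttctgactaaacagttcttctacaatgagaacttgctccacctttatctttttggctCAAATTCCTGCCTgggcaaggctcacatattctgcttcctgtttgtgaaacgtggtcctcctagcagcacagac

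Family Ces1 held 1 called gene among 8, beside 10.5% of all probe sets. Ces1d, a triacylglycerol hydrolase of liver and fat, was 4.37, 5.13 and 5.62 in NICD-OE-HEC, against 3.45, 4.01 and 4.37 in Control. The groups met only where the lowest NICD-OE-HEC array and the highest Control array lay at about the same level. Ces1d rose by 1.13 (SE 0.21, 2.19-fold, adjusted p = 0.00234), the largest rise among the called genes. Its neighbour Ces1c, an esterase that the liver secretes into plasma, was 5.68, 6.45 and 7.68 in NICD-OE-HEC, against 5.35, 5.70 and 6.67 in Control, a difference of 0.82 that was not called (95% interval 0.11 to 1.53, adjusted p = 0.152; with the replicate number as a block, adjusted p = 0.0104). Ces1c moved with the hepatocyte marker mean, as given above, while Ces1d had a slope of -0.06. Ces3a, another liver esterase, differed by -0.56 and was not called (95% interval -1.27 to 0.14, adjusted p = 0.367). Probe sets of Ces1 and of the Cyp2c, Cyp2d and Cyp3a families come from near-identical genes, and signal shared between such copies cannot be told apart in these values.

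Among the enzymes of fatty acid and arachidonic acid oxidation, 1 of 17 CYP4 genes rose and 1 fell, and 0 of 8 CYP2J genes rose and 2 fell, beside 4.89% higher and 5.59% lower among all probe sets. Cyp4b1, a fatty acid hydroxylase known from lung and kidney, was 10.29, 10.62 and 10.87 in NICD-OE-HEC, against 11.16, 11.20 and 11.48 in Control. All NICD-OE-HEC arrays lay below all Control arrays, and Cyp4b1 fell by 0.62 (SE 0.10, 1.54-fold, adjusted p = 7.21e-04). Among 17 measured CYP4 fatty acid hydroxylases it was the only one that fell, and Cyp4f14, which inactivates leukotriene B4, the only one that rose (0.83, SE 0.23, adjusted p = 0.0322). Cyp4f14 averaged 3.36 ± 0.55 in NICD-OE-HEC and 2.53 ± 0.37 in Control (SD, n = 6 each), both below the background median, and lost its call on leaving out any of 7 single arrays (NICD-OE-HEC 1, 2, 5 or 6, or Control 2, 3 or 4; differences from 0.70 to 1.02). Cyp4f13 and Cyp4v3, 2 further fatty acid hydroxylases, differed by -0.17 (95% interval -0.51 to 0.17) and -0.04 (-0.37 to 0.28) and were not called. Cyp4f18, the leukotriene hydroxylase of mouse neutrophils, was picked after its values were seen. It averaged 4.44 ± 0.24 in NICD-OE-HEC and 4.27 ± 0.33 in Control (difference 0.17, adjusted p = 0.602), on arrays whose neutrophil marker mean was 1.95 higher.

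Of 8 measured CYP2J epoxygenases 2 fell and 0 rose. Cyp2j6 was 4.48, 4.90 and 5.44 in NICD-OE-HEC, against 5.47, 5.63 and 5.96 in Control, without overlap, and fell by 0.72 (SE 0.14, 1.65-fold, adjusted p = 0.00329). Its neighbour Cyp2j9 was 4.15, 4.36 and 4.56 in NICD-OE-HEC, against 4.52, 4.99 and 5.37 in Control, overlapping at 1 NICD-OE-HEC array, and fell by 0.61 (SE 0.13, adjusted p = 0.00703). Cyp2j5, the next gene along and known from kidney and liver, differed by 0.53 and was not called (95% interval 0.06 to 0.99, adjusted p = 0.159). The other 5 CYP2J genes lay below the background median.

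Steroid, sterol and vitamin enzymes were mostly at background. Cyp39a1, which hydroxylates oxysterols, was 4.35, 4.53 and 4.95 in NICD-OE-HEC, against 3.22, 3.92 and 4.25 in Control. The groups did not overlap, and Cyp39a1 rose by 0.76 (SE 0.17, 1.69-fold, adjusted p = 0.00903). Cyp8b1, the sterol hydroxylase that directs bile acid synthesis to cholic acid, differed by 0.28 and was not called (95% interval -0.04 to 0.60, adjusted p = 0.301). Cyp2r1, which makes the circulating form of vitamin D, was 3.62, 4.42 and 4.53 in NICD-OE-HEC, against 4.50, 4.96 and 5.39 in Control. It fell by 0.68 (SE 0.19, adjusted p = 0.0276) with 3 NICD-OE-HEC arrays inside the Control range, and was not called with the replicate number as a block (adjusted p = 0.0622). NICD-OE-HEC 4 was the lowest array, and the call was lost without NICD-OE-HEC 5 or Control 3, 4 or 6 (differences from -0.78 to -0.55). Among 5 steroid hormone enzymes, all at or below the background median, limma called 0. An unadjusted limma p under 0.05 was found for 1 of the 5, beside 21.7% of all probe sets.

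Hepatocyte markers were higher in NICD-OE-HEC, and no gene of a list of drug-metabolising P450s known from hepatocytes was called higher. Of 36 measured genes of that list 0 rose and 2 fell (Cyp1a2 and Cyp2d22), with a median difference of -0.09. Among all probe sets 4.89% were higher and 5.59% lower, and the list's counts lie near those shares. Of 24 hepatocyte markers 11 were higher, with a median difference of 0.94. The lists are unlike in level. All 24 markers lay above the background median, whereas 28 of the 36 lay at or below it, where 1.93% of all probe sets were called. Cyp2e1, the ethanol-oxidising P450 of hepatocytes around the central vein, was 5.42, 6.62 and 7.35 in NICD-OE-HEC, against 5.83, 6.95 and 7.66 in Control. The groups overlapped over most of their range, and the difference of -0.33 was not called (95% interval -1.09 to 0.42, adjusted p = 0.682). Cyp2e1 was lower in NICD-OE-HEC than in Control in 6 of 6 same-numbered pairs of arrays, by differences from -0.48 to -0.19. A fit with the replicate number as a block called it (adjusted p = 0.0368), though the labels do not say that the numbers pair the samples. Over all probe sets only 2 of 6 arrays correlated best with their own number, while the hepatocyte marker mean did follow the number. The main comparison did not take the numbers as pairs. For genes that move with that mean the whole-array check does not settle pairing. The missing call of Cyp2e1 thus belongs to the unpaired fit. Cyp3a11, a main drug-oxidising P450 of mouse liver, was 5.33, 6.47 and 6.92 in NICD-OE-HEC, against 4.97, 5.94 and 6.81 in Control (difference 0.39, 95% interval -0.31 to 1.09, adjusted p = 0.574). Cyp2c29 differed by -0.54 (95% interval -1.37 to 0.30, adjusted p = 0.498), Cyp2c70, which makes muricholic acids in mice, by 0.44 (-0.44 to 1.32), and Cyp2d9, a steroid hydroxylase of male liver, by -0.51 (-1.01 to -0.01, adjusted p = 0.214). Cyp2f2, an activator of naphthalene, and Cyp2a12 differed by 0.30 and 0.32 and were not called. Cyp2d22 was 7.14, 7.45 and 7.59 in NICD-OE-HEC, against 7.83, 7.99 and 8.27 in Control, without overlap, and fell by 0.60 (SE 0.11, 1.51-fold, adjusted p = 0.00158). Its place on the list comes from its family, and on these arrays its slope on the hepatocyte marker mean was -0.15 and did not pass.

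With the hepatocyte marker mean of each array in the fit, the calls changed. That mean was itself 0.86 higher in NICD-OE-HEC, so this fit lowers the difference of any gene with a positive slope. Group and marker mean cannot be fully told apart here. Then 3 genes were higher and 11 lower in NICD-OE-HEC, 13.2% of the set beside 6.35% of all probe sets (3.10% higher and 3.24% lower). Of the 13 genes called without it 7 were called again: Cyp1b1 (1.15, adjusted p = 0.0289), Ces1d (1.18), Cyp39a1 (1.03), Cyp4b1 (-0.61), Ces2g (-0.68), Ces2e (-2.32) and Cyp1a2 (-1.30, adjusted p = 5.73e-04). Cyp1a1 (0.77), Cyp4f14 (0.57), Cyp2d22 (-0.47), Cyp2j6 (-0.63), Cyp2j9 (-0.46) and Cyp2r1 (-0.67) kept their sign but were not called. The 7 genes called only in this fit were all lower: Cyp2e1 (-1.28, adjusted p = 0.0195), Ces3a (-1.50), Cyp2c29 (-1.58), Cyp2c70 (-0.85), Cyp2d9 (-1.17) and, picked after their values were seen, Cyp2d26 (-0.72) and Cyp2d13 (-0.73). All 7 had positive slopes, so their shared direction follows in part from the fit and is no separate result. Cyp2c70, Cyp2d9 and Cyp2d13 lay at or below the background median. This fit was also run without array 1 of both groups, and the last section gives its count over all probe sets. In that run 2 genes were higher and 7 lower. Cyp1b1 (1.75), Cyp39a1 (1.36), Ces2e (-2.81), Ces2g (-0.85) and Cyp1a2 (-1.48) were called there again, as were Cyp2e1 (-2.08), Ces3a (-1.92), Cyp2c29 (-2.20) and Cyp2d9 (-1.34), while Cyp4b1 (-0.51, adjusted p = 0.390) and Ces1d (0.86, adjusted p = 0.494) were not.

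**Figure D4:**
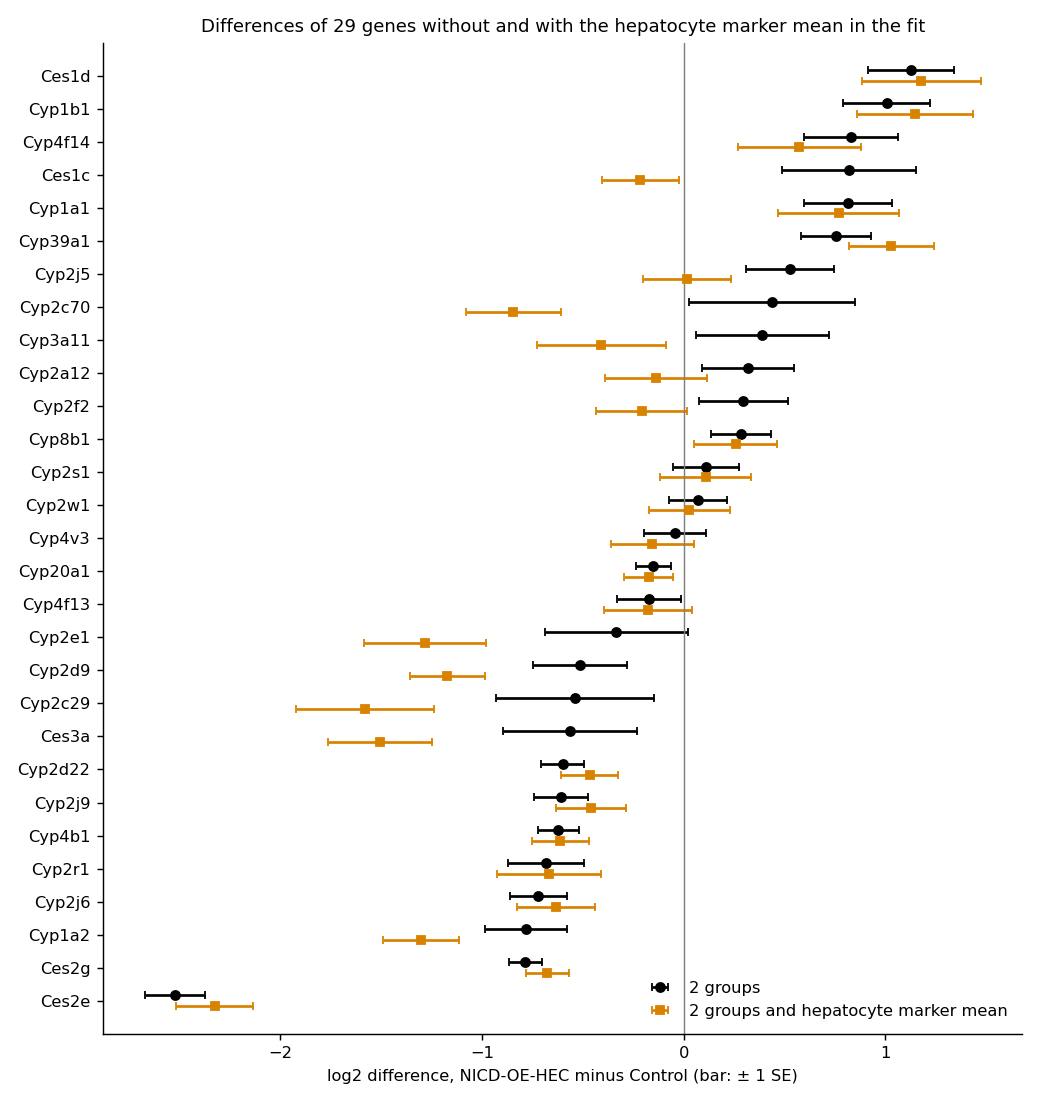
Log2 differences, NICD-OE-HEC minus Control (horizontal, bars 1 SE), of 29 named genes in the fit of the 2 groups (black circles) and in the fit that also holds the hepatocyte marker mean (orange squares). Ces2e, Ces2g, Cyp4b1 and Cyp1b1 differ by similar amounts in both fits, whereas Cyp2e1 goes to -1.28 from -0.33 and Ces1c to -0.21 from 0.82 when the mean is added.

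Other members above the median showed little difference. Cyp20a1, a P450 with no assigned substrate, was 7.31, 7.55 and 7.70 in NICD-OE-HEC, against 7.47, 7.71 and 7.82 in Control (difference -0.15, 95% interval -0.34 to 0.04, adjusted p = 0.372). Cyp2s1 and Cyp2w1, P450s known from tissues outside the liver, differed by 0.11 (-0.24 to 0.46) and 0.07 (-0.24 to 0.38). Cyp26c1 and Cyp3a57, picked after their values were seen, did not overlap between the groups but lay at background and were not called (differences 0.30 and 0.23, adjusted p = 0.0930 and 0.0906).

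Genes that work with these enzymes changed in part, and their counts stand beside 4.89% higher and 5.59% lower among all probe sets. Of 10 redox partners and haem genes 1 rose and 0 fell. It was Hmox1, the haem-degrading oxygenase, which averaged 9.54 ± 0.37 in NICD-OE-HEC and 8.26 ± 0.27 in Control (SD, n = 6 each; difference 1.28, adjusted p = 1.06e-04). In the AHR pathway, where 6 genes were measured, the receptor Ahr itself fell (7.12 ± 0.13 in NICD-OE-HEC and 7.80 ± 0.10 in Control, difference -0.68, adjusted p = 6.66e-05). Tiparp, an AHR target that represses the receptor, rose by 0.47 (adjusted p = 0.0452). The other genes of that list, Arnt (-0.17), Nqo1 (-0.43), Ahrr (0.03) and Aldh3a1 (-0.02), were not called, and Ahrr and Aldh3a1 lay below the background median. Of 11 nuclear receptors and liver transcription factors that control P450 genes limma called 0. An unadjusted limma p under 0.05 was found for 3 of the 11, beside 21.7% of all probe sets. The largest differences there were Hnf4a (0.62, adjusted p = 0.104) and Nr1h3 (0.57, adjusted p = 0.0692), and Nr1h3 moved with the hepatocyte marker mean (slope adjusted p = 0.0189).

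Among 19 conjugating and oxidising enzymes 3 rose and 2 fell, beside 4.89% higher and 5.59% lower among all probe sets. Adh1 (alcohol dehydrogenase, 1.20), Gsta3 (a glutathione transferase, 0.76) and Ephx1 (microsomal epoxide hydrolase, 0.46) rose, and Sult1a1 (a sulfotransferase, -0.80) and Fmo1 (a flavin monooxygenase, -0.50) fell. Adh1 and Gsta3 moved with the hepatocyte marker mean (slope adjusted p = 0.00401 and 0.0288), and Sult1a1 and Fmo1 had slopes that did not pass. Of 12 other lipid and ester hydrolases Lpl (lipoprotein lipase, 1.00), Bche (butyrylcholinesterase, 0.98) and Pnpla2 (adipose triglyceride lipase, 0.52) rose, and Pon3 (a lactonase, -1.06) and Mgll (monoglyceride lipase, -0.41) fell. Lpl had a positive slope on the hepatocyte marker mean (adjusted p = 0.0305), as 4 of 10 Kupffer cell markers did. Among 9 P450 family genes outside the naming rule 2 fell, Cyp26b1, which degrades retinoic acid (-2.08), and Cyp7b1, an oxysterol hydroxylase (-0.38).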

How the data were processed

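Each of 12 samples gave 1 array. The authors deposited 1 log2 value per probe set and array. The values come from RMA, per the submitters' processing notes, a method that subtracts background, equalises the quantiles of the arrays and summarises probes. Because the quantiles are shared, a change of most genes one way would not show, and there are no detection calls. No source used here names the chip definition or a genome build. Symbols came from the platform annotation, and all 106 Entrez identifiers had the same symbol in RefSeq's GRCm38.p6 table.

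Differences are NICD-OE-HEC minus Control, fitted with limma 3.58.1 (R 4.3.3; lmFit, eBayes) over 25428 probe sets with no filter, two-sided. SE is limma's moderated standard error. Marker means were compared by exact permutation tests over arrays. The labels say of the replicates only that each is a numbered biological replicate and a pool. The p-values therefore set group differences against the spread between pools. The limma step was tested on simulated data.

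The members, gene lists, tests and the rule for naming genes were chosen with earlier results of these data known. The rule names called genes, Cyp1b1, Ces2e and Cyp2e1, each family's gene with the highest mean where that lies above the median, the 5 largest differences not called and genes beside the level boundaries. For the other lists it names up to 6 called genes, or the 2 largest differences, and for marker lists those with the highest means. Alternatives were other scalings, filters on dim probe sets, variance models, weights per array, a block for the replicate number, the hepatocyte marker mean as a covariate and arrays left out. The slopes, the counts above the median and the fits without array 1 of both groups were added after seeing the data.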

Additional observations from a re-analysis of the deposited data

Results flagged for a closer look

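In 6 of 60 groups of arrays tested for the named genes and the hepatocyte marker mean, 1 array stood apart from the other 5 by Dixon's test, which chance alone does in about 1 of 20 groups. Cyp2r1 was at 3.62 on NICD-OE-HEC 4, against 4.27 to 4.53 on the other NICD-OE-HEC arrays. Among Control arrays, Control 2 was low for Cyp1b1 (4.82, others 5.42 to 5.78) and for Cyp4v3 (5.50, others 5.94 to 6.17). Cyp4b1 was high on Control 3 (11.48, others 11.16 to 11.27). Ces2g was low on Control 1 (8.09, others 8.30 to 8.42) and Cyp20a1 low on Control 5 (7.47, others 7.70 to 7.82). The calls of Cyp1b1, Cyp4b1 and Ces2g held when any single array was left out.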

How the results depend on the processing

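The array number and the shared quantiles limit what can be seen, and for genes near or below the background median the signal over background does. Differences of Ces2e and Cyp1b1 kept their direction and call in every alternative run. Over single arrays left out, genes called higher ran from 3 (without NICD-OE-HEC 1) to 6 and lower from 6 to 8, and all probe sets called from 2107 to 2970. Cyp2e1 ran from -0.55 to -0.10, and the hepatocyte marker mean difference from 0.68 to 1.05 (exact permutation p from 0.00216 to 0.0455). Without Control 2 and NICD-OE-HEC 4 together that difference was 0.91 (exact permutation p = 0.0556), and Cyp1a2 (-0.74, adjusted p = 0.0607) and Cyp4f14 (0.76, adjusted p = 0.0535) lost their calls. The hepatocyte marker mean as a covariate left 3 genes higher, 11 lower and 1614 probe sets called, moved Cyp2e1 to a call at -1.28 and turned Cyp2c70 to -0.85. Without array 1 of both groups as well there were 2 higher, 7 lower and 451 of all 25428 probe sets called, with Cyp2e1 at -2.08. An absolute log2 difference of at least 1 left 2 higher (Cyp1b1 and Ces1d), 1 lower (Ces2e) and 531 probe sets. These causes were not tested. With the replicate block 6 genes were higher and 8 lower, counts given here without the share over all probe sets. The block moved Cyp2e1 (-0.33, adjusted p = 0.0368) and Ces1c (0.82, adjusted p = 0.0104) to calls, and Cyp2r1 lost its call (adjusted p = 0.0622). Over all probe sets, same-numbered arrays correlated from -0.10 to 0.22 in their deviations from the group means (3 of 6 over 0.1). Only 2 of 6 correlated best with their own number, and the main comparisons took no pairs. The hepatocyte marker mean did follow the number, with same-numbered differences from 0.68 to 1.03. For genes that move with that mean, whether the numbers are pairs stays unsettled.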
